A study of Capra hircus with 6 samples.

Results

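The antioxidant and glutathione genes are a list of 42 genes that make, use or regulate the cell's defences against superoxide and peroxides. They were chosen by name, and 35 of the 42 were found among the 17504 genes of the expression tables by their NCBI goat symbol. SOD3, GSTA1, GSTM1, GSTO1, GSTP1, GSTT1 and MGST1 were not matched and are not analysed here. All 35 found genes passed the filter on low values (1 FPKM or more in 3 or more libraries). FPKM divides fragments by transcript length and by the mapped fragments in the library, so levels can be compared between genes.

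The values come from whole ovaries of 6 goats (Capra hircus) in the follicular phase, 1 library per goat. The groups were 3 Tibetan goats, labelled non-prolific, and 3 Jintang black goats, labelled prolific. Ages and litter records of the goats are not used here. The comparison is of transcript levels in the ovary between the breeds, given below as the Jintang mean less the Tibetan mean of log2(FPKM + 1), a scale that makes changes of low genes look smaller.

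Superoxide is turned into hydrogen peroxide by superoxide dismutases, and the peroxide is then removed by catalase, by glutathione peroxidases that spend glutathione, and by peroxiredoxins that spend thioredoxin. Glutathione is built from amino acids by glutamate-cysteine ligase and glutathione synthetase, and glutathione S-transferases attach it to lipid peroxides and foreign compounds. The transcription factor NRF2 (gene NFE2L2), held down by KEAP1, drives many of these genes. In the ovary, steroid synthesis in mitochondria is a known source of such oxidants.

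Summed FPKM lay between 602255 and 682801 in the 6 libraries, and 12617 to 13131 genes reached 1 FPKM. Absolute depth is unknown, and the spacing of low FPKM values put relative depth between 0.925 and 1.03 (Tibetan 1 set to 1). The search covered only values near 1, so a much larger difference in depth could have been missed. The ovaries differed in their cell markers before any breed comparison. The 10 luteal and steroidogenic markers summed to 24418 FPKM in Jintang 2, 6562 in Jintang 1 and 3939 in Tibetan 3, and to between 421 and 800.4 in the other 3 ovaries, with none at 0. TIMP1, a protease inhibitor, made up 5304 of the sum in Jintang 1, and the mean log2 level of the list was 8.47 in Jintang 2, 7.11 in Tibetan 3, 6.60 in Jintang 1 and 4.08 to 5.22 in the others. The 15 macrophage markers were all highest in Jintang 1, where they summed to 2219.6 FPKM against 163 to 653 elsewhere, and MARCO was listed at 0 in Jintang 3. The 12 granulosa markers summed to 425, 715 and 1480.4 FPKM in the Tibetan goats 1, 2 and 3, against 613, 451 and 574 in the Jintang goats 1, 2 and 3, with FSHR listed at 0 in Tibetan 1. INHA, an inhibin subunit, made up 1194 of the sum in Tibetan 3, and the mean log2 level of the list was highest in Tibetan 2 (4.87) and Jintang 3 (4.79) and 3.60 to 3.97 in the others. In whole tissue, fewer cells of a type and less RNA per cell cannot be told apart.

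No member passed the breed test: the limma adjusted p was 0.743 or more for each of the 35, and none of the 13067 genes tested (0%) passed. At an unadjusted limma p under 0.05 there were 2 members, GPX3 higher and NFE2L2 lower in Jintang ovaries, where 6.17% of all genes tested reached that p (2.82% higher and 3.35% lower). The breeds did not overlap in 3 members, SOD1, NFE2L2 and NQO1, all lower in Jintang, against 9.90% of all genes tested, 6.70% lower and 3.20% higher. The members' median log2 fold change was 0.15, with 23 of 35 positive (65.7%), and that of all genes tested was -0.10, with 41.0% positive. Median-ratio scaling, which moved the median of all genes from -0.10 to 0.02, gave a members' median of 0.28 with 25 of 35 positive, beside 52.3% of all genes. Without Jintang 2 the members' median was -0.02 and 15 of 35 were positive.

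**Figure D1:**
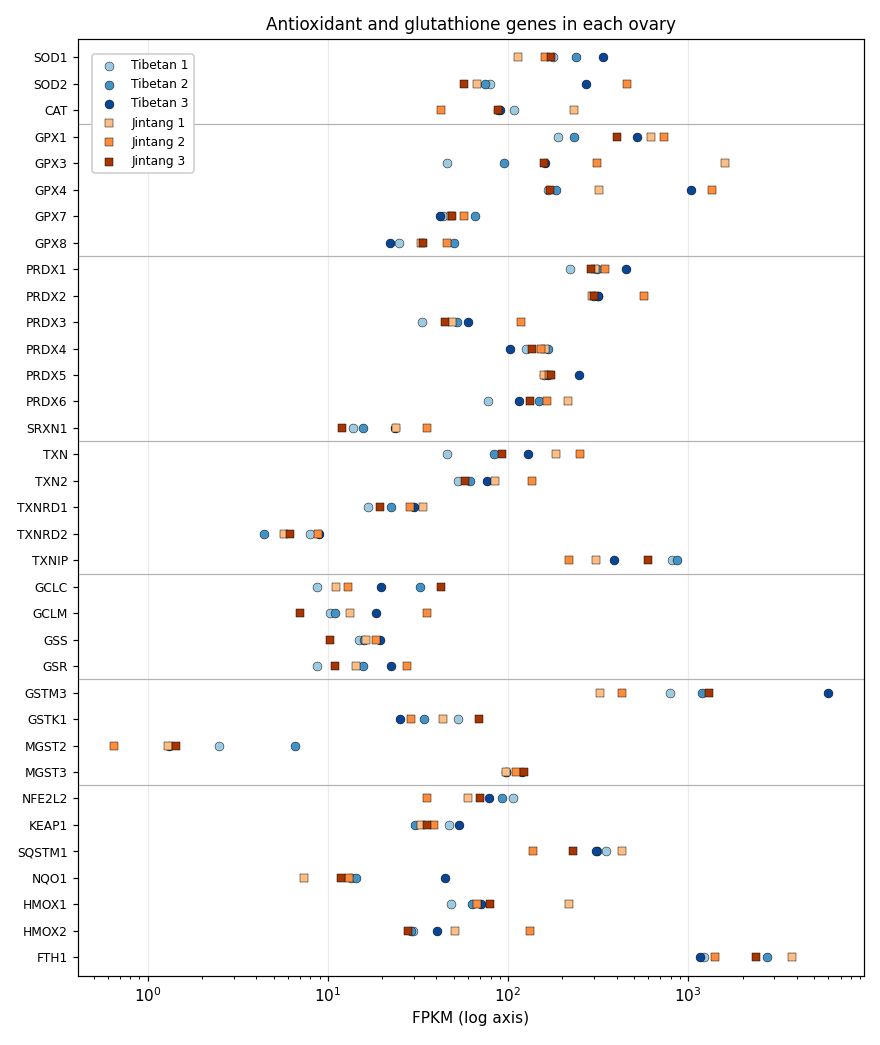
FPKM (log axis) of the 35 members in each ovary, circles for the 3 Tibetan and squares for the 3 Jintang ovaries, with grey lines between the groups by role. Most members overlap between breeds, and GPX3, GPX4, SOD2 and GSTM3 spread widely within a breed, while MGST3 lies between 97.0 and 123 FPKM in all 6.

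Of the superoxide dismutases, SOD1, the copper-zinc enzyme of the cytosol (GeneID 100861196), stood at 179, 239 and 338 FPKM in the Tibetan goats 1, 2 and 3, against 114, 159.9 and 173 in the Jintang goats 1, 2 and 3. Every Jintang value lay below every Tibetan value, the nearest being Jintang 3 and Tibetan 1. The means were 252 ± 80.3 and 149 ± 31.2 FPKM (SD, n = 3 each), a log2 fold change of -0.73 (SE 0.34, limma adjusted p = 0.743). SOD2, the manganese enzyme of mitochondria, was at 79.7, 74.0 and 269 FPKM in the Tibetan goats and 66.8, 458 and 57.0 in those of Jintang. Jintang 2 and Tibetan 3 were high and the other 4 ovaries low, so the difference between breeds (0.05, SE 0.83) was far smaller than the spread within them. STAR, the carrier that brings cholesterol into mitochondria for steroid synthesis, was also highest in Jintang 2 (3130.4 FPKM), with Tibetan 3 and Jintang 1 level at 139 FPKM and the other 3 between 8.91 and 30.8 FPKM. The part of steroid-making cells in the SOD2 level was not tested.

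Catalase (CAT), the peroxisomal enzyme that breaks down hydrogen peroxide, was at 107, 87.5 and 90.6 FPKM in the Tibetan goats and 232, 42.2 and 87.5 in those of Jintang. Jintang 1 was the highest and Jintang 2 the lowest of the 6, with the Tibetan ovaries between them. The breed means differed by 0.01 on the log2 scale (SE 0.55), and the sign turned when single libraries were left out, from -0.63 without Jintang 1 to 0.59 without Jintang 2.

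The glutathione peroxidases gave the widest range of the list. All 5 members had a positive log2 fold change, and none passed the test. GPX3, the secreted form found in plasma (GeneID 102189207), stood at 45.5, 94.7 and 160.4 FPKM in the Tibetan goats and 1608, 312 and 157 in those of Jintang. Jintang 1 was 5.16 times the next ovary, and Jintang 3 lay just under Tibetan 3, so the breeds overlapped. The means were 100.2 ± 57.6 and 692 ± 797 FPKM (log2 fold change 2.26, SE 0.83, limma unadjusted p = 0.0251, adjusted p = 0.743), and the log2 fold change was 1.31 without Jintang 1 and 2.99 without Jintang 3. Jintang 1 was also the ovary with the highest level of all 15 macrophage markers and of 7 of the 12 fibroblast and matrix markers. The part of either cell type in the GPX3 level was not tested.

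GPX1, the cytosolic peroxidase, was at 189, 232 and 521 FPKM in the Tibetan goats and 624, 736 and 403 in those of Jintang. Only Tibetan 3 reached into the Jintang range, where it exceeded Jintang 3. The log2 fold change was 1.00 (SE 0.46, limma adjusted p = 0.743), with an unadjusted p of 0.059 that became 0.0427 with median-ratio scaling. GPX4, which reduces lipid peroxides inside membranes and guards cells against ferroptosis, was at 167, 184 and 1041 FPKM in the Tibetan goats and 318, 1358 and 172 in those of Jintang. As for SOD2, Jintang 2 and Tibetan 3 stood apart from the other 4. GPX4 averaged 464 ± 499.9 and 616 ± 647 FPKM, a log2 fold change of 0.41 (SE 0.91) that became -0.44 without Jintang 2 and 1.26 without Tibetan 3. GPX7 and GPX8, the peroxidases of the endoplasmic reticulum, stayed between 41.9 and 65.9 FPKM and between 22.0 and 49.8 FPKM. Both were highest in Tibetan 2 and lowest in Tibetan 3.

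Most peroxiredoxins were abundant. With SRXN1 they had a median log2 range over the ovaries of 1.02, near the 1.15 of all genes tested. PRDX1, a cytosolic form, stood at 222, 310.1 and 451 FPKM in the Tibetan goats and 304, 344 and 287 in those of Jintang, and its log2 fold change was -0.02 (SE 0.34). PRDX2, the other main cytosolic form, was at 314, 300.5 and 317 FPKM in the Tibetan goats and 294, 571 and 301 in those of Jintang, so that 5 ovaries lay within 293.5 to 317 FPKM and Jintang 2 stood alone above them. PRDX2 is abundant in red blood cells, and the beta-globin gene HBBC was at 33.0 FPKM in Jintang 2 and between 0 and 0.30 FPKM elsewhere, while the red-cell genes ALAS2, SLC4A1, AHSP and EPB42 stayed at or below 0.67 FPKM in every ovary. PRDX3, the mitochondrial form, was likewise highest in Jintang 2 (118 FPKM, against 33.1 to 59.7 elsewhere). PRDX4 of the secretory pathway ran from 102 to 166 FPKM and PRDX5, found in several compartments, from 157 to 247 FPKM. The log2 fold change of PRDX4 was 0.21 (95% interval -0.45 to 0.87) and that of PRDX5 -0.17 (-0.83 to 0.50). PRDX6, which uses glutathione and also acts on phospholipids, averaged 114 ± 35.7 and 171 ± 41.8 FPKM (0.60, SE 0.34), with Jintang 1 highest and Tibetan 1 lowest. SRXN1, which repairs over-oxidised peroxiredoxins, was between 11.9 (Jintang 3) and 35.5 FPKM (Jintang 2).

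Thioredoxin and its inhibitor stood in opposite order. TXN, the cytosolic thioredoxin, was at 45.6, 83.5 and 129 FPKM in the Tibetan goats and 185, 250.4 and 92.6 in those of Jintang. TXNIP, which binds and blocks thioredoxin, was at 807, 862 and 387 FPKM in the Tibetan goats and 309, 218 and 596 in those of Jintang. Jintang 1 and 2 had the highest TXN and the lowest TXNIP, and Tibetan 1 and 2 the lowest TXN and the highest TXNIP, with Tibetan 3 and Jintang 3 between them in both genes. The ratio of TXN to TXNIP was 0.0565, 0.0969 and 0.333 in Tibetan and 0.598, 1.15 and 0.155 in Jintang ovaries, a 20.3-fold range over the 6 ovaries in which the breeds overlapped through Jintang 3. By limma neither gene passed: TXN had a log2 fold change of 1.03 (SE 0.49) and TXNIP of -0.91 (SE 0.49), both at an adjusted p of 0.743. Mitochondrial TXN2 was highest in Jintang 2 (136 FPKM) and at 53.0 to 84.2 FPKM elsewhere. The reductases that recharge thioredoxin were lower, TXNRD1 of the cytosol at 16.6 to 33.7 FPKM and TXNRD2 of mitochondria at 4.40 to 8.97 FPKM.

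Genes of glutathione supply were among the lower members, with all values of GCLC, GCLM, GSS and GSR between 6.99 and 42.3 FPKM. GCLC, the catalytic subunit of glutamate-cysteine ligase, was at 8.72, 32.2 and 19.7 FPKM in the Tibetan goats and 11.1, 13.0 and 42.3 in those of Jintang. GCLM, its modifier subunit, was at 10.3, 10.98 and 18.6 FPKM in the Tibetan goats and 13.2, 35.3 and 6.99 in those of Jintang. Jintang 3 had the most GCLC and the least GCLM, and Jintang 2 the most GCLM. The ratio of GCLC to GCLM was 6.05 in Jintang 3 and 2.94 in Tibetan 2, between 0.842 and 1.06 in Tibetan 1, Tibetan 3 and Jintang 1, and 0.367 in Jintang 2. Jintang 3 and Tibetan 2 were also the ovaries with the granulosa genes AMH (44.3 and 20.7 FPKM, at most 1.99 elsewhere) and HSD17B1 (23.8 and 22.4 FPKM, at most 4.13 elsewhere). AMH and HSD17B1 were named with their values in view. Of the 12 granulosa markers, Jintang 3 and Tibetan 3 were each highest in 3. Tibetan 1 and Jintang 1 were each highest in 2, and Tibetan 2 and Jintang 2 in 1. INHA and CYP19A1 were highest in Tibetan 3 (1194 and 15.6 FPKM), and CYP19A1 was at 0.94 FPKM in Jintang 3. Of the 11 oocyte markers, 6 were highest in Jintang 3 and 5 in Tibetan 2. Their mean log2 level was 1.29 and 1.30 there and 0.11 to 0.58 in the others. These genes were low, summing to at most 25.1 FPKM in any ovary, with some listed at 0. The lymphocyte markers had a mean log2 level of 2.96 in Jintang 3 and 2.64 in Tibetan 2, against 1.38 to 2.25 in the others. The part of granulosa cells, oocytes or lymphocytes in the GCLC level was not tested. GSS, which adds glycine, and GSR, which regenerates reduced glutathione, differed between breeds by -0.17 (SE 0.30) and 0.15 (SE 0.43).

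**Figure D2:**
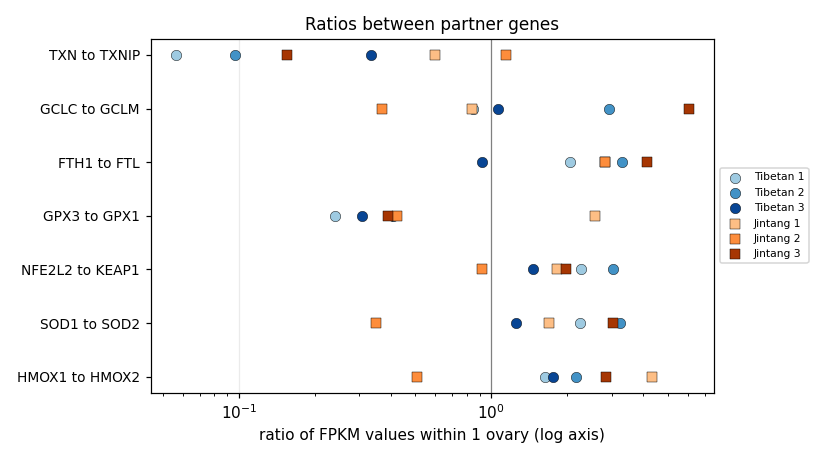
Ratios of FPKM values of 2 partner genes within each ovary (log axis, grey line at 1), circles for Tibetan and squares for Jintang ovaries. TXN to TXNIP runs from 0.0565 in Tibetan 1 to 1.15 in Jintang 2 and GCLC to GCLM from 0.367 in Jintang 2 to 6.05 in Jintang 3, and the breeds overlap in all 7 ratios.

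Of the glutathione S-transferases, 4 of 10 listed genes were found. GSTM3, a cytosolic transferase of the mu class (GeneID 102188913), was the second most abundant member at 789.8, 1188 and 5948 FPKM in the Tibetan goats 1, 2 and 3, against 324, 430.5 and 1305 in the Jintang goats 1, 2 and 3. Tibetan 3 was 4.56 times the next ovary, Jintang 3, which lay inside the Tibetan range, while Jintang 1 and 2 lay below it. The means were 2642 ± 2870.1 and 686 ± 538 FPKM (log2 fold change -1.64, SE 0.82, limma adjusted p = 0.743), and the log2 fold change was -0.77 without Tibetan 3 and -2.25 without Jintang 3. CYP17A1 (listed as LOC102182663), the androgen-making enzyme of theca cells, was also highest in Tibetan 3 (719 FPKM) and lowest in Jintang 1 and 2 (1.99 and 4.24 FPKM), with the others at 16.3 to 152 FPKM. It was the only one of the 10 luteal and steroidogenic markers with a negative log2 fold change (-3.39), and 6 of the 10 were highest in Jintang 2 and 2 in Tibetan 3. The part of theca or other steroid-making cells in the GSTM3 level was not tested. Genes of the mu class are close copies of one another, so reads may be shared between them and the level of GSTM3 is uncertain.

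MGST2, a microsomal transferase, was at 2.50, 6.56 and 1.32 FPKM in the Tibetan goats and 1.29, 0.65 and 1.44 in those of Jintang. Tibetan 2 stood above the rest, and the values were near the filter, so the log2 fold change of -0.91 (SE 0.47) is understated. MGST3, another microsomal form, was the most even member, at 97.5, 97.0 and 119 FPKM in the Tibetan goats and 97.9, 111 and 123 in those of Jintang (0.08, 95% interval -0.51 to 0.67). GSTK1, the peroxisomal and mitochondrial kappa form, ran from 25.2 FPKM in Tibetan 3 to 69.0 FPKM in Jintang 3.

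NFE2L2, which encodes NRF2 (GeneID 102176737), stood at 107, 92.3 and 78.0 FPKM in the Tibetan goats and 59.7, 35.4 and 69.9 in those of Jintang. All 3 Jintang values lay below all 3 Tibetan values, and Jintang 2 was the lowest. The means were 92.3 ± 14.4 and 55.0 ± 17.7 FPKM (log2 fold change -0.78, SE 0.32, limma unadjusted p = 0.0412, adjusted p = 0.743). With median-ratio scaling the log2 fold change was -0.65 and the unadjusted p 0.0749, and without Jintang 2 it was -0.50 (unadjusted p = 0.147). The 13 immediate-early and heat-shock genes, which respond to handling as well as to stress in the animal, had a mean log2 level of 6.16, 6.30 and 6.49 in Tibetan and 5.76, 5.22 and 5.34 in Jintang ovaries, with 11 of 13 negative. These summed to 2533 to 4342 FPKM in Tibetan and to 1554 to 2131 FPKM in Jintang ovaries, FOSB was listed at 0 in Jintang 2, and their part in the NFE2L2 level was not tested. KEAP1, the repressor of NRF2, was steadier at 30.4 to 53.2 FPKM, with a log2 fold change of -0.25 (SE 0.29).

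NQO1, a quinone reductase and a classic NRF2 target, was at 13.4, 14.4 and 44.9 FPKM in the Tibetan goats and 7.40, 13.0 and 11.9 in those of Jintang. The breeds did not overlap, but Tibetan 1 and Jintang 2 nearly met, and Tibetan 3 was 3.12 times the next ovary. The log2 fold change of -0.91 (SE 0.47, limma adjusted p = 0.743) was -0.37 without Tibetan 3, and with median-ratio scaling the breeds overlapped. SQSTM1, the autophagy receptor that draws KEAP1 away from NRF2, was at 352, 312 and 309 FPKM in the Tibetan goats and 428, 137 and 228 in those of Jintang. The Jintang ovaries held both the highest and the lowest value (log2 fold change -0.44, SE 0.43). The log2 fold change of SQSTM1 was -0.87 without Jintang 1 (limma unadjusted p = 0.0486, adjusted p = 0.983) and -0.05 without Jintang 2.

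Of the haem oxygenases, which free iron from haem, HMOX1 is the inducible form and was at 48.5, 62.7 and 71.1 FPKM in the Tibetan goats and 218, 67.4 and 79.7 in those of Jintang. HMOX2, the constitutive form, was at 29.8, 28.9 and 40.6 FPKM in the Tibetan goats and 50.4, 132 and 28.0 in those of Jintang. Each was led by a single ovary, HMOX1 by Jintang 1 (2.74 times the next) and HMOX2 by Jintang 2 (2.63 times the next), so that the ratio of HMOX1 to HMOX2 was 4.33 in Jintang 1 and 0.509 in Jintang 2. As deposited, the breeds overlapped in HMOX1, with Tibetan 3 above Jintang 2. Median-ratio scaling put all 3 Jintang values above the Tibetan ones, and raised the positive share of all genes tested from 41.0% to 52.3%. The share of genes without overlap at that scaling is not reported here. The log2 fold change of HMOX1 was 0.80 (0.28 without Jintang 1) and that of HMOX2 0.79 (0.20 without Jintang 2). HMOX1 is a marked product of macrophages, and CD68 in the same ovaries was at 14.0, 62.8 and 17.5 FPKM in the Tibetan goats and 233.5, 9.83 and 67.3 in those of Jintang. The part of macrophages in the HMOX1 level was not tested.

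FTH1, the ferritin heavy chain that stores iron in a harmless form, was the most abundant member at 1222, 2732 and 1158 FPKM in the Tibetan goats and 3767, 1409.6 and 2368 in those of Jintang. Jintang 1, Tibetan 2 and Jintang 3 were the high ovaries, and the same 3 had the highest mean log2 level of the macrophage markers (6.29, 4.29 and 4.63, against 2.92 to 3.92 in the others). The part of macrophages in the FTH1 level was not tested. The log2 fold change of FTH1 was 0.57 (SE 0.55, limma adjusted p = 0.809). Ferritin genes have many processed copies, so some of these reads may be shared.

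**Figure D3:**
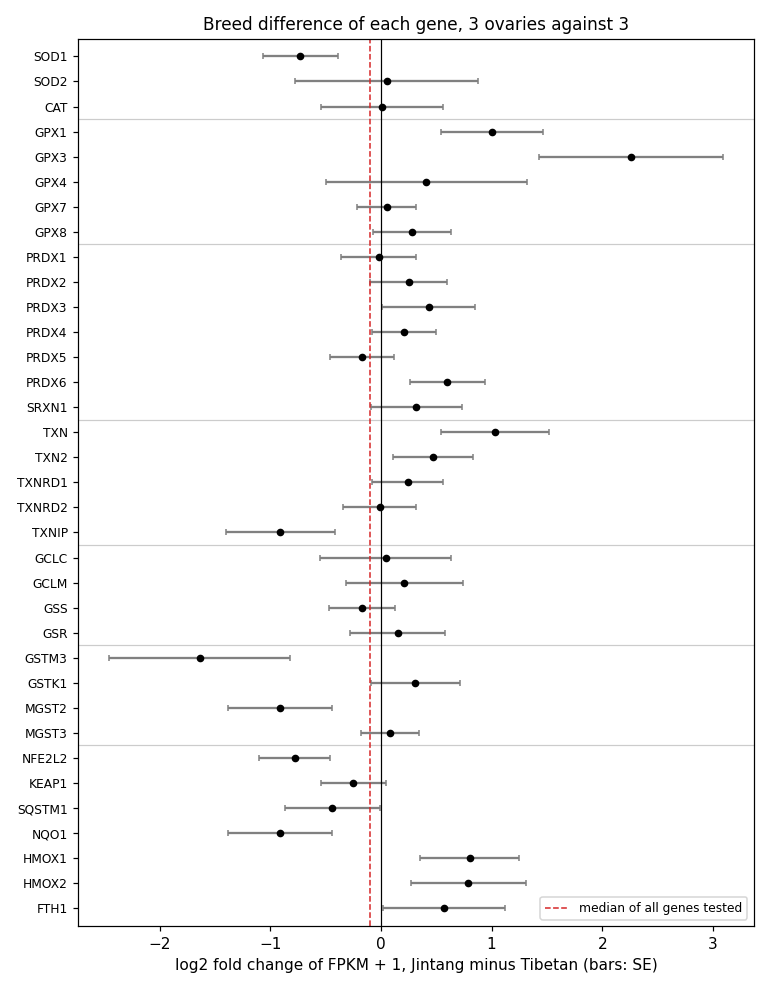
Log2 fold change of FPKM + 1 (Jintang minus Tibetan, 3 ovaries each) of the 35 members with its limma SE as bars, beside the median of all genes tested (dashed line at -0.10). GPX3 lies highest at 2.26 and GSTM3 lowest at -1.64, and no member passed the test after adjustment.

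The ovary with the highest value differed from member to member. Jintang 2 held the highest value of 11 members, namely SOD2, GPX1, GPX4, PRDX2, PRDX3, SRXN1, TXN, TXN2, GCLM, GSR and HMOX2. Over all genes tested, Jintang 2 was highest in 2683 of 13067 and Jintang 1 in 1645. Jintang 1 held the highest value of 7 members, CAT, GPX3, PRDX6, TXNRD1, SQSTM1, HMOX1 and FTH1. Tibetan 3 led 8, Tibetan 2 led 5, Jintang 3 led 3 and Tibetan 1 led only NFE2L2, while Tibetan 1 held the lowest value of 12 members. Over all genes tested, Tibetan 1 was highest in 2859 and lowest in 2740. Tibetan 3 was highest in 2356, Tibetan 2 in 2409 and Jintang 3 in 1115. The mean log2 level over the 35 members was 5.96, 6.27 and 6.55 in Tibetan 1, 2 and 3 and 6.41, 6.52 and 6.16 in Jintang 1, 2 and 3. The list took 0.916%, 1.16% and 2.02% of the summed FPKM in Tibetan ovaries and 1.65%, 1.26% and 1.10% in Jintang ovaries, and neither measure separated the breeds.

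In 34 of the 35 members the larger of the ranges within a breed exceeded the difference between breed means. The ratio of the highest to the lowest ovary was above 5 in 9 members and under 2 in 7. None of these counts was made over all genes tested, so they describe the members alone. The median SD within breeds was 0.60 on the log2 scale for the members and 0.42 for all genes tested, and the median of the members' mean levels was 91.3 FPKM against 12.8 for all genes tested.

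**Figure D4:**
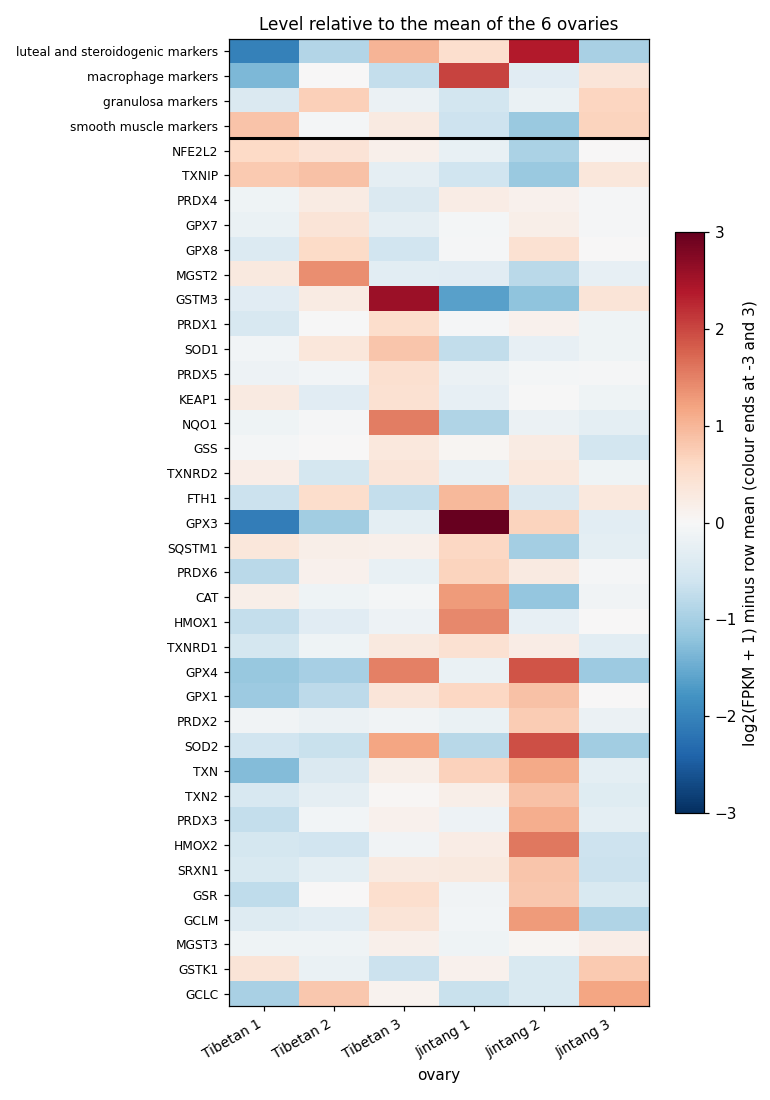
Log2(FPKM + 1) of each member minus its mean over the 6 ovaries (colour), members grouped by the ovary where they are highest, with the mean of 4 cell marker lists above the black line. GPX4 and SOD2 are high in Jintang 2 and Tibetan 3, GPX3, CAT and HMOX1 in Jintang 1, and GSTM3 and NQO1 in Tibetan 3.

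Other genes of the same pathways were taken from lists of pathway genes, and none of them passed the limma test (adjusted p 0.743 or more in each list). Of 26 other glutathione genes tested, 16 were positive and 10 negative (median 0.12). GGT7, of the family that breaks glutathione down outside the cell, was at 16.0, 13.0 and 24.3 FPKM in the Tibetan goats and 3.39, 1.55 and 11.1 in those of Jintang (log2 fold change -1.82, SE 0.55). ANPEP, a surface peptidase of the same breakdown route, was at 6.08, 5.26 and 6.40 FPKM against 3.10, 2.1 and 3.12 FPKM (-0.88, SE 0.28), and OPLAH, which recycles oxoproline to glutamate, had a log2 fold change of -0.85 (SE 0.37). The breeds did not overlap in GGT7 and ANPEP, both lower in Jintang (6.70% of all genes tested), or in CHAC1, a glutathione-degrading enzyme that was higher (3.20% of all genes tested) at 1.46 to 2.66 FPKM against 0.79 to 1.28. CHAC1 was chosen with its values in view. GGT7, ANPEP and OPLAH had an unadjusted limma p under 0.05, as did 6.17% of all genes tested.

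A further list held other NRF2 targets and partners together with thioredoxin-like and protein-folding genes, and control by NRF2 was not tested. Of its 32 tested genes, 20 were positive and 12 negative (median 0.08). TXNDC5, a thioredoxin-like protein of the endoplasmic reticulum, was at 94.1, 96.1 and 139 FPKM in the Tibetan goats and 279.6, 278 and 135 in those of Jintang (1.01, SE 0.37), high in Jintang 1 and 2 alone. PGD, an enzyme that supplies NADPH for glutathione reduction and was named after its values were seen, had a log2 fold change of 0.06 (SE 0.26). Of 20 selenoproteins and genes of selenocysteine synthesis, 9 were positive and 11 negative (median -0.02). These 20 include the members GPX1, GPX3, GPX4, TXNRD1 and TXNRD2, so the counts are not of other genes alone. The members GPX3 and GPX1 had the smallest p, followed by SEPHS1 (-0.54, SE 0.32). Of 10 oxidant-producing genes tested, 6 were positive and 4 negative (median 0.19). Neuronal nitric oxide synthase NOS1 was at 2.82, 2.42 and 2.03 FPKM in the Tibetan goats and 0.37, 0.35 and 1.77 in those of Jintang (-0.98, SE 0.39). Of 22 other repair genes, 11 were positive and 11 negative (median 0.01), led by the mitochondrial carrier UCP2 at 25.2, 27.3 and 14.0 FPKM in the Tibetan goats and 88.0, 71.4 and 20.8 in those of Jintang (1.22, SE 0.54).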

How the data were processed

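The authors deposited 1 FPKM table per goat. RSEM 1.2.0, Bowtie2 2.1.0 and TopHat2 2.0.10 are named, with no roles, per the submitters' processing notes. Build and annotation: not given in the sources used here. No coordinates or sequences are printed. Total RNA was extracted with TRIzol and an NEBNext kit made the libraries, per the labels' protocols. FPKM values were used without rescaling. Symbols came from a RefSeq table of the ARS1.2 assembly, which matched 16457 IDs by GeneID and 9 by transcript. Another 1036 did not match, and 2 shared a symbol and kept their IDs. Older symbols were used for a few genes outside the member list (SEPW1, SEPN1, VIMP, EPT1, LDH-A), and HBBC stood for beta-globin.

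The breed test used R 4.3.3 and limma 3.58.1 (trended eBayes, 2-sided). It was fitted to log2(FPKM + 1), breed alone, in the 13067 genes that reached 1 FPKM in 3 or more libraries, with Benjamini-Hochberg adjustment over all of them and a threshold of 0.05. Tested on simulated data of 13067 genes for this comparison, the fit recovered 0% of 50 genes changed by a log2 of 1, 66% at 2, 84% at 3 and 88% at 4, with 5 false calls. Each library is 1 goat, and no batch is labelled. All 35 members found are named. Values in each ovary are given for members without overlap, the 10 highest means, the 10 widest log2 ranges and the 6 smallest p, and for some others chosen to complete a role. Of each other list the text names up to 3 genes with the smallest p, and some results are not reported here. The members and lists were chosen with earlier results of these data known. Ratios, counts of highest ovaries and marker sums are descriptions without a test. Alternatives were a pseudocount of 0.1, no filter, a filter of 5 FPKM, median-ratio and TPM scaling, the replicate number as a block, and leaving out each library. A search of proteins and promoters was planned and not run. Figures were drawn with matplotlib 3.10.9.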

Additional observations from a re-analysis of the deposited data

How the results depend on the processing

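With 3 goats per breed, the simulation recovered 0% of 50 genes changed by a log2 of 1. Differences of the size seen in most members could therefore be missed. The simulation used independent noise in genes drawn at random, and the members varied more within breeds than all genes (median SD 0.60 against 0.42). No member passed in any alternative (smallest limma adjusted p 0.218, for GPX3 without Jintang 3). Over all genes the count past the threshold was 0 in every setting except without Jintang 3, so it ran from 0 to 13 with a library left out, and 806 genes had an unadjusted p under 0.05 as reported. Members with an unadjusted limma p under 0.05 numbered 2 as reported and 0 (without Tibetan 2) to 7 (without Jintang 3) with a library left out. Of all 13067 genes tested, 687 higher and 1187 lower in Jintang reached that p without Jintang 3. Without Tibetan 2 these were 347 and 423. Members without overlap numbered 3 as reported and 3 to 13 with a library left out, where the share over all genes was 15.1% (without Tibetan 1) and 33.6% (without Jintang 3). No sign was seen that the numbers 1 to 3 in the titles pair the goats. Deviations of same-numbered libraries correlated at -0.018, -0.211 and -0.47, and 0 of 6 libraries were closest to their own number. The ovaries differed widely in cell markers, which could hide a pairing from this check. With the replicate block 0 genes passed, 581 had an unadjusted p under 0.05, 2 members did, GPX3 and GSTM3, and the members' median was 0.15.

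The sign of the log2 fold change held in 19 members across all alternatives. With median-ratio scaling it became 0.12 for PRDX1 and 0.10 for TXNRD2. With a library left out, the sign changed in 16 members. The ranges were -0.91 to 0.65 for SOD2, -0.63 to 0.59 for CAT, -0.44 to 1.26 for GPX4, -0.06 to 0.26 for GPX7, -0.27 to 0.24 for PRDX1, -0.06 to 0.42 for PRDX2, -0.01 to 0.69 for PRDX3 and -0.28 to 0.03 for PRDX5. They were -0.02 to 0.73 for SRXN1, -0.28 to 0.16 for TXNRD2, -0.53 to 0.45 for GCLC, -0.38 to 0.71 for GCLM, -0.33 to 0.06 for GSS, -0.21 to 0.45 for GSR, -0.01 to 0.61 for GSTK1 and -0.00 to 0.18 for MGST3. The cause was not tested.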

Other observations

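A few genes beside the list, named after their values were seen, stood apart in single ovaries. PIR, an iron-binding nuclear protein and NRF2 target, was at 119.6 FPKM in Jintang 2 and 3.19 to 11.8 FPKM elsewhere. ACSL4, which loads membranes with the unsaturated lipids that ferroptosis oxidises, reached 137 FPKM (Tibetan 3) and 119 FPKM (Jintang 2), with 7.60 to 26.8 FPKM elsewhere, the same pair of ovaries that led GPX4 and SOD2. NCF4, a subunit of the phagocyte oxidase, reached 243 FPKM in Tibetan 3, against 32.1 FPKM in Jintang 1, the ovary with the highest macrophage markers, and at most 11.6 FPKM elsewhere. NCF1, of the same complex, was at 1.77 FPKM in Tibetan 3. The light ferritin chain FTL was at 597, 831 and 1262 FPKM in the Tibetan goats and 1331, 498 and 569.6 in those of Jintang, so that the ratio of FTH1 to FTL was under 1 in Tibetan 3 alone (0.917) and 2.05 to 4.16 in the others.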
